A study of Rattus norvegicus with 15 samples.

Results

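The comparison described here asked whether the effects of 2 plant extracts on gene expression in the rat femur added up when both were given together. Juglans regia L. is the walnut tree and Psoralea corylifolia Linn. is a legume whose seeds are used in traditional medicine for bone disease. Of the 15 polyA RNA-seq libraries of the series, 12 entered, 3 from each of the groups OVX, J, P and PJ, and the 3 Sham libraries did not. Every rat behind these 12 libraries was a female Sprague-Dawley (SD) animal, 8 weeks old at the start, whose ovaries had been removed on both sides and who then recovered for 6 weeks. For the following 8 weeks group OVX received saline, group J the Juglans regia L. extract at 1.6 g/kg/d, group P the Psoralea corylifolia Linn. extract at 2.4 g/kg/d and group PJ the combined extract at 4.0 g/kg/d. The PJ dose equals the sum of the J and P doses, while the amount of each extract inside it is not given separately in the labels. Ovariectomy removes the main source of estrogen, so these groups carry no intact control, and the extracts are mixtures whose compounds are not listed. The labels name the tissue as femur without saying which part of it was taken, and do not state that the 3 libraries of a group are 3 different animals. The p-values therefore cover only the spread among libraries, which may be technical.

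Ovariectomy is a standard model of bone loss after menopause. Estrogen restrains osteoclasts, the cells that resorb bone, and its loss raises both resorption and formation by osteoblasts, with resorption ahead. A femur holds bone, marrow that makes blood cells, marrow fat and, at its ends and surface, cartilage and attached muscle, and RNA from all of these can enter one library. In bulk RNA, fewer cells of a type and less RNA per cell cannot be told apart.

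Expression was given as FPKM, reads scaled by gene length and by the depth of the library, and was analysed as log2(FPKM + 1), a scale that understates the change of low genes. The additivity contrast of a gene was PJ minus J minus P plus OVX. It is 0 when the log2 difference of PJ from OVX equals the sum of the J and P differences, which means that the fold changes multiply. Below, "under the sum" means a negative contrast and "over the sum" a positive one. A gene whose expression went up in both single groups lies under the sum when PJ rose less than the 2 effects together, and a gene that went down in both lies over the sum when PJ fell less. The J, P and PJ differences from OVX share the same OVX libraries and are given side by side as values. The contrast holds the OVX, J and P means with the opposite sign to the J and P differences. Error in these means therefore moves rising genes under the sum and falling genes over it, so this pattern is partly built in.

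Depth was 36120000 to 61030000 reads per library, worked out to 4 significant digits from the step size of the FPKM values, and a count of 3 reads corresponded to 0.0492 to 0.0831 RPM, reads scaled by library depth. Femur markers were present in every library: Col1a1, the main collagen of bone, ranged from 35.3 to 1763 FPKM, Bglap (osteocalcin) from 32.9 to 3620 FPKM, Ibsp (bone sialoprotein) from 59.1 to 724 FPKM and Ctsk (cathepsin K) from 29.0 to 1929 FPKM. Markers of cartilage, joint and muscle varied more. Of the marrow markers, Mpo (67.7 to 434.6 FPKM) and Cd79a (57.0 to 489.7 FPKM) varied less. Slc4a1 ran from 14.6 to 892 FPKM and Pf4 from 91.8 to 1268 FPKM. The fat markers Adipoq (22.1 to 1730 FPKM) and Plin1 (8.84 to 755 FPKM) also varied widely. Within OVX alone, Adipoq was at 22.1, 130 and 398 FPKM. Col2a1, the collagen of cartilage, ranged from 0.0205 to 107.4 FPKM, and Acta1, skeletal muscle actin, from 0.102 to 695 FPKM, while Acan and Myh4 were each listed at 0 in 1 library. Mitochondrial genes took 11.22% to 35.89% of the FPKM and globin genes 0.306% to 8.252%. Libraries P 2 and PJ 3 stood apart from the others of their groups. P 2 had the highest share of mitochondrial FPKM, and its cartilage list averaged 7.09 on the log2 scale against 2.52 and 3.01 in P 1 and P 3. In PJ 3 the same list averaged 1.23 against 5.35 and 5.84 in PJ 1 and PJ 2. Values without either or both of these libraries are given for some list medians. Other list medians also moved without them.

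No gene passed the test of non-additivity. limma found 0 of 14321 tested genes (0%) at an adjusted p under 0.05, where all p-values were adjusted over all tested genes by the Benjamini-Hochberg method. limma-voom on the recovered reads also gave 0 genes. At an unadjusted p under 0.05 there were 1261 genes (8.81%), of which 546 (3.81%) lay over the sum and 715 (4.99%) under it. The contrast was centred near 0, with a median of -0.0026, and 7118 genes (49.7%) were above 0 and 7203 (50.3%) below. Larger contrasts were mostly negative: 724 genes (5.06%) lay at -1 or lower and 231 (1.61%) at 1 or higher. For 48 genes (0.335%), 25 of them among those 231, the sum lay below an FPKM of 0, a level that cannot be reached. Down-weighting discordant libraries by limma's array weights changed the count to 506 genes, 179 over and 327 under the sum. The weights were 0.188 for P 2 and 0.216 for PJ 3, against 1.13 for PJ 2 and 5.15 for PJ 1. The weighted PJ mean thus rested mostly on PJ 1. Leaving out both P 2 and PJ 3 without weights gave 0 genes.

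**Figure D1:**
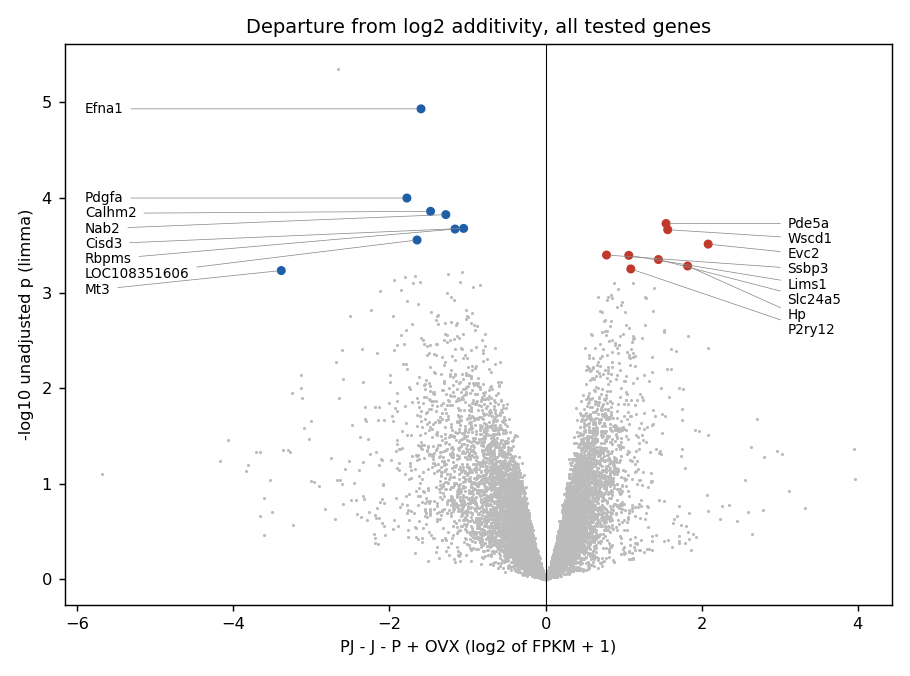
Each point is 1 of the 14321 tested genes, with its additivity contrast (log2 units) on the horizontal axis and -log10 of its unadjusted limma p on the vertical axis. The 8 genes of smallest p with a symbol on each side are coloured and labelled, none passed an adjusted p of 0.05, and more points lie beyond -1 than beyond 1.

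The precision of the contrast bounds what this absence of calls shows. It combines 4 group means, and its median standard error was 0.3075 log2 units, against 0.2175 for a difference of 2 groups such as J against OVX. For 7187 genes (50.2%) the 95% interval lay within 1 log2 unit of 0. A departure of 2-fold or more in FPKM + 1 was outside these intervals. For the remaining genes a departure of that size lay inside the interval and could not be bounded with these libraries. In low genes a 2-fold departure in FPKM itself is less than 1 unit on this scale, so it can lie inside either kind of interval. With 0.1 in place of 1 added to the FPKM, 5696 genes had an interval within 1 unit.

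Both extracts had effects that passed the test alone. From the same fit, J differed from OVX in 557 genes (3.89%), 283 higher (1.98%) and 274 lower (1.91%). P differed in 5309 genes (37.1%), 3253 higher (22.7%) and 2056 lower (14.4%), and PJ in 6121 (42.7%), 4081 higher (28.5%) and 2040 lower (14.2%). PJ differed from J in 1583 genes (11.1%), 857 higher (5.98%) and 726 lower (5.07%). With median-ratio scaling these splits were 314 higher and 631 lower in J, 2895 and 2874 in P, 3124 and 3115 in PJ, and 527 and 1020 in PJ against J. After rescaling to TPM, PJ against J gave 1138 higher and 495 lower, and leaving out mitochondrial and globin genes gave 595 higher and 283 lower in J. On the linear scale J gave 42 higher and 655 lower. Between PJ and P, limma called 0 genes (0%), with a lowest adjusted p of 0.7071, and 299 genes (2.09%) had an unadjusted p under 0.05, 137 higher (0.957%) and 162 lower (1.13%). The 95% interval of PJ minus P lay within 1 log2 unit of 0 for 11212 genes (78.3%). The count for J was the least stable: it was 0 without OVX 1 and 0 without OVX 2, and 1332 without PJ 3. Leaving out PJ 2 took the PJ against J count to 145, 12 higher and 133 lower, and leaving out PJ 3 took it to 3587.

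The genes of smallest p under the sum were all genes that rose in J, in P and in PJ against OVX, a direction partly built into the contrast. None passed the adjusted threshold for the contrast. Efna1 encodes ephrin-A1, a membrane-bound ligand of Eph receptors. Its FPKM was 2.91, 2.50 and 2.65 in OVX, 8.35, 8.92 and 9.55 in J, 16.9, 21.8 and 14.8 in P and 14.4, 17.0 and 15.5 in PJ. OVX was lowest, J was intermediate without overlap, and PJ overlapped P. The log2 difference from OVX was 1.43 in J, 2.34 in P and 2.17 in PJ, against a sum of 3.77. The contrast was -1.60 ± 0.21 (SE, n = 3 libraries per group; limma adjusted p = 0.0842, and from 0.00522 to 0.444 over the alternatives). The sum would have put PJ at 49.2 FPKM, and adding the differences on the linear scale at 24.1 FPKM.

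Pdgfa encodes the A chain of platelet-derived growth factor, a mitogen of mesenchymal cells. It was at 1.10, 1.73 and 1.83 FPKM in OVX, 5.68, 5.13 and 8.13 in J, 13.0, 15.4 and 11.6 in P and 13.1, 11.5 and 8.41 in PJ. PJ overlapped P and lay above J in all 3 libraries, the lowest by a small margin. The contrast was -1.78 ± 0.30 (SE; limma adjusted p = 0.345), with PJ at 2.22 against a sum of 4.00. Nab2 encodes a corepressor of EGR transcription factors. It was at 1.71, 1.88 and 2.35 FPKM in OVX, 5.11, 6.80 and 6.24 in J, 6.94, 9.54 and 8.70 in P and 8.75, 8.18 and 7.402 in PJ. Here every extract library was above every OVX library, and the contrast was -1.28 ± 0.22 (SE).

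Mt3 encodes a metallothionein, a small metal-binding protein, and had the most negative contrast of these 8 genes. It was at 2.62, 4.98 and 4.80 FPKM in OVX, 18.2, 33.6 and 99.5 in J, 108, 64.4 and 83.7 in P and 79.7, 73.0 and 46.3 in PJ. The J libraries spread widely and reached into the range of P and PJ. The differences from OVX were 3.02, 4.08 and 3.71, and the contrast was -3.39 ± 0.70 (SE; limma adjusted p = 0.391). The other 4 genes were Calhm2, of the calcium homeostasis modulator family (-1.47 ± 0.26), Cisd3, a mitochondrial iron-sulfur protein (-1.05 ± 0.19), Rbpms, an RNA-binding protein (-1.16 ± 0.21), and LOC108351606 (-1.65 ± 0.31). The gene of lowest adjusted p carries no symbol and falls outside the naming rule, so it was chosen after its values were seen. This gene, ENSRNOG00000064136, had a contrast of -2.66 ± 0.32 (SE; limma adjusted p = 0.0651), with 2.09 in J, 3.18 in P and 2.61 in PJ.

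**Figure D2:**
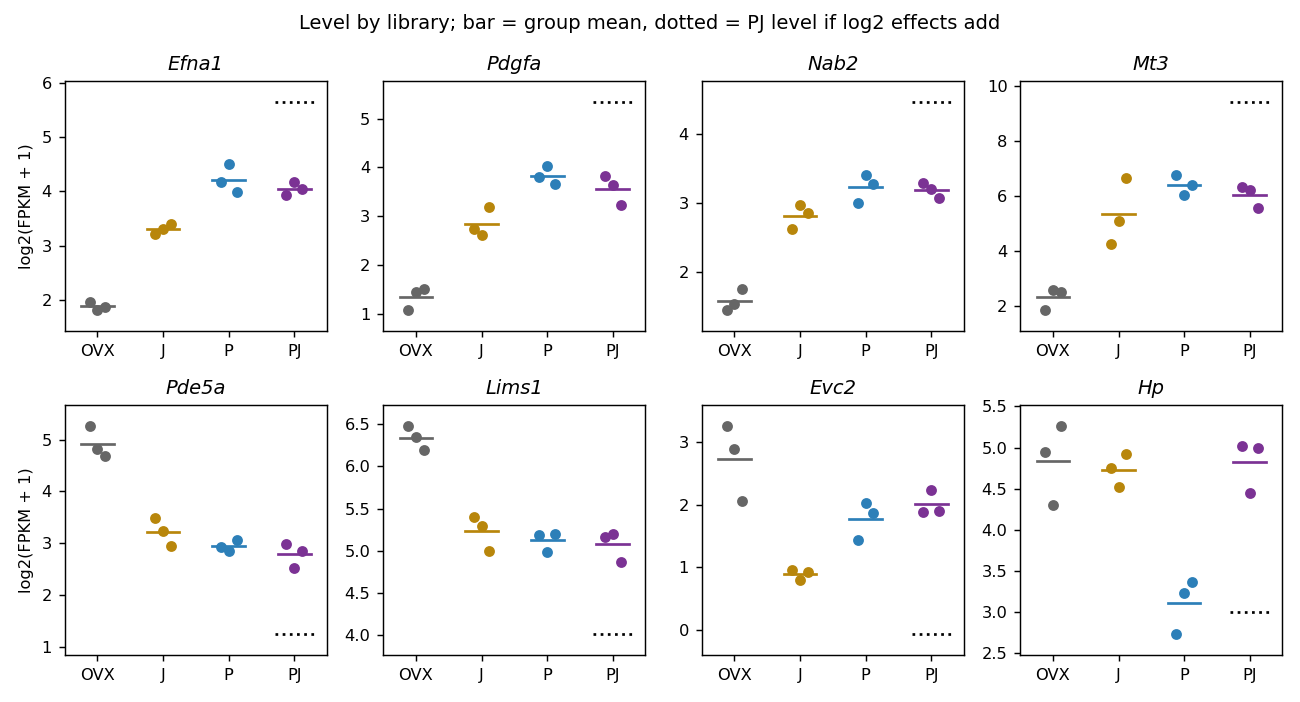
log2(FPKM + 1) of 8 genes in each of the 12 libraries, by group. Bars are group means and the dotted line is the PJ level that the sum of the J and P differences would give. PJ lies under that line for Efna1, Pdgfa, Nab2 and Mt3 and over it for Pde5a, Lims1, Evc2 and Hp.

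Among the 8 genes of smallest p over the sum, 6 fell in J, in P and in PJ, again a direction partly built in. Pde5a encodes the phosphodiesterase that degrades cGMP. It was at 37.6, 27.1 and 24.8 FPKM in OVX, 10.2, 8.37 and 6.67 in J, 6.61, 6.25 and 7.37 in P and 6.91, 4.77 and 6.21 in PJ. All 9 extract libraries were below all 3 OVX libraries, with J overlapping P and PJ. The log2 differences were -1.71, -1.97 and -2.14 against a sum of -3.68, and the contrast was 1.54 ± 0.28 (SE; limma adjusted p = 0.345). Lims1, an adaptor of focal adhesions, was at 88.5, 80.7 and 72.2 FPKM in OVX, 41.2, 38.4 and 30.9 in J, 35.5, 30.8 and 35.7 in P and 35.0, 35.9 and 28.2 in PJ. The 3 extract groups overlapped one another below OVX, and the contrast was 1.07 ± 0.21 (SE).

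The remaining genes that fell in all 3 groups were Wscd1 (1.56 ± 0.29), Ssbp3, a cofactor of LIM-domain transcription complexes (0.78 ± 0.15), Slc24a5, a sodium, potassium and calcium exchanger (1.45 ± 0.29), and P2ry12, the ADP receptor of platelets (1.09 ± 0.23). Evc2, a protein of the primary cilium in hedgehog signalling, fell in J and in P. Its difference of -0.73 in PJ did not pass (limma adjusted p = 0.0583). For Evc2 and Slc24a5 the sum would put PJ at -0.0489 and -0.196 FPKM, below any level that can be measured, so any PJ value gives a positive contrast.

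Hp had another pattern. Hp encodes haptoglobin, which binds free hemoglobin. It was at 29.7, 18.8 and 37.5 FPKM in OVX, 26.0, 21.9 and 29.4 in J, 5.65, 8.37 and 9.30 in P and 31.3, 20.9 and 31.0 in PJ. The 3 P libraries were below the other 9, which overlapped one another. Hp fell by 1.73 log2 units in P (limma adjusted p = 0.000793), and its differences in J and PJ were -0.11 and -0.02. The contrast was 1.82 ± 0.37 (SE; limma adjusted p = 0.391). PJ minus P was 1.71 ± 0.26 and did not pass over all genes (limma adjusted p = 0.7071). Without P 2 and PJ 3 the Hp contrast was 1.79.

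Gene lists for cell types and pathways were described by their counts and medians, beside the same over all tested genes. Over all genes the median log2 difference was 0.10 in J, 0.10 in P and 0.21 in PJ, and the shares called higher and lower were 1.98% and 1.91% in J, 22.7% and 14.4% in P, and 28.5% and 14.2% in PJ. The counts of each list below are to be read against these shares. The shares of contrasts above or below 0 over all genes mix rising and falling genes. So do the shares over or under the sum at an unadjusted p under 0.05. All these shares are therefore not a matched comparison for lists whose genes mostly rose or mostly fell. Of the 527 genes in 28 lists, 472 were tested, and none was called in the contrast. For genes of the osteoblast and bone matrix, which build and mineralise bone, 17 of 18 contrasts were below 0 and 1 above, against 50.3% below for all genes. The median log2 difference was 1.38 in J, 2.14 in P and 2.26 in PJ, and the median contrast was -1.26. In J 2 of the 18 rose (1.98% of all genes), in P 13 rose (22.7% of all genes) and 1 fell, and in PJ 13 rose (28.5% of all genes) and 1 fell. Col1a1 was at 163.9, 45.6 and 35.3 FPKM in OVX, 572, 530 and 261 in J, 1763, 98.6 and 944 in P and 808, 481 and 126 in PJ. P 2 and PJ 3 were lower than every J library, and the contrast of -3.30 had a 95% interval from -6.51 to -0.10 (limma adjusted p = 0.558). Bglap, a hormone-like matrix protein of osteoblasts, had a contrast of -3.81 with an interval from -7.87 to 0.25. The osteoblast transcription factors lay nearer 0, with -0.49 ± 0.59 for Runx2 and -1.18 ± 0.62 for Sp7. Without P 2 the median of the list was -1.88, without PJ 3 it was -0.93, and without both it was -1.34.

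Interstitial matrix genes, the collagens and proteoglycans of connective tissue, had a median contrast of -1.67, with 22 of 24 below 0. Of the 24, 11 had an unadjusted p under 0.05, all under the sum, where 4.99% of all genes did. In J 5 rose, in P 19 and in PJ 18, and none fell. Bgn encodes biglycan, a small proteoglycan of bone matrix. It was at 27.6, 32.9 and 35.0 FPKM in OVX, 96.3, 81.2 and 85.9 in J, 216, 181 and 225 in P and 257, 274 and 114 in PJ. J lay between OVX and P without overlap, while PJ 3 lay between J and P. Bgn rose by 1.44 in J, 2.67 in P and 2.62 in PJ, and its contrast was -1.49 ± 0.40 (SE; limma adjusted p = 0.396). Pcolce, which enhances the processing of procollagen, had a contrast of -1.68 ± 0.35, and Col6a2, a chain of type VI collagen, -1.26 ± 0.33. The median of the list was -1.25 without PJ 3 and -0.89 without both P 2 and PJ 3.

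The cartilage list changed sign with the libraries used. All 15 tested genes were below 0, at a median of -2.15. The median was -0.09 without P 2, -0.39 without PJ 3 and 0.73 without both. Acan, the proteoglycan of cartilage, was at 140.6 FPKM in P 2 and 0.0114 in PJ 3. The skeletal muscle list had a median of -2.34 with all 15 below 0, -1.35 without P 2 and -1.08 without both libraries. Its mean level was 5.14 in P 2 and 0.66 to 0.78 in PJ. It was uneven in the other groups too, at 0.53 to 2.66 in OVX and 0.82 to 2.795 in J. In P 1 and P 3 it was 2.19 and 0.85. The part of attached cartilage and muscle in these contrasts was not tested.

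**Figure D3:**
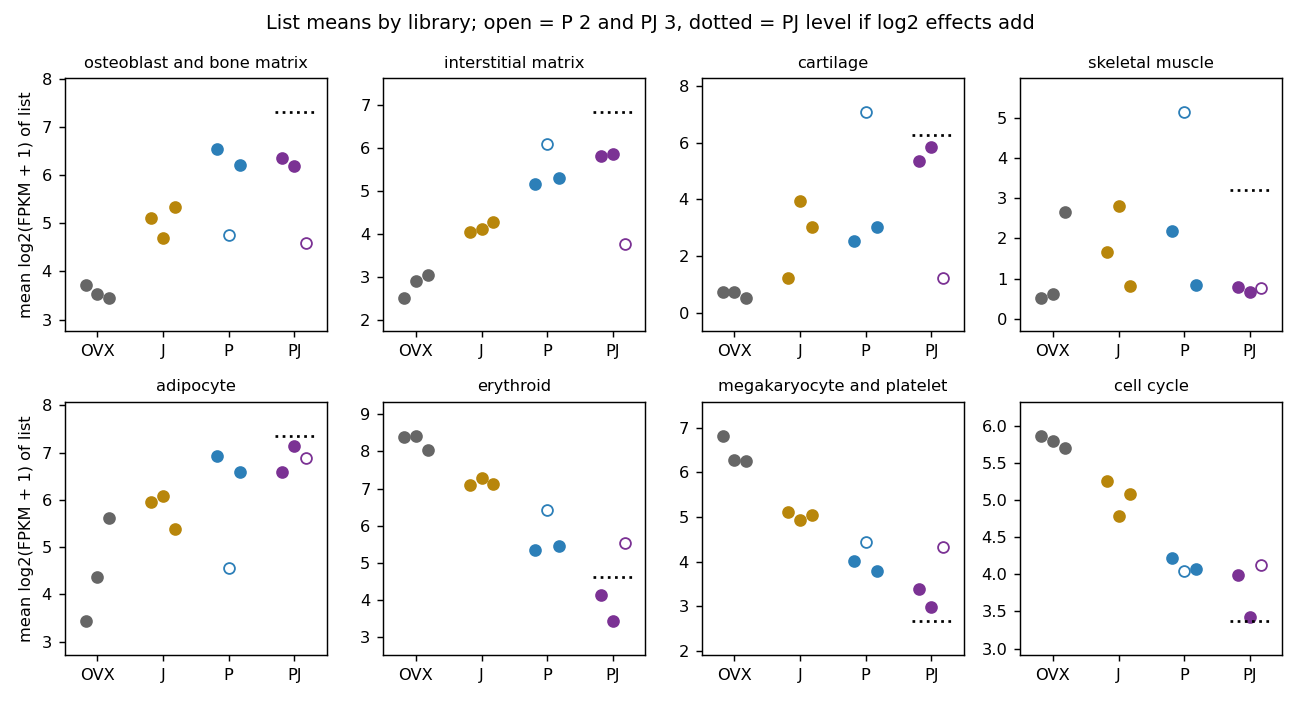
Mean log2(FPKM + 1) of 8 gene lists in each library, by group. Open markers are P 2 and PJ 3, and the dotted line is the PJ level that the J and P differences would sum to. The cartilage and muscle lists are highest in P 2, and the cell cycle list is highest in OVX and intermediate in J.

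Osteoclast genes had a median contrast of -0.53, with 14 of 17 below 0. The median was -0.82 without P 2 and -0.21 without J 3. In P 11 rose and 2 fell, in PJ 12 rose and 2 fell, and in J 1 rose. Ctsk, the collagen-degrading protease of osteoclasts, had a contrast of -2.09 with an interval from -4.25 to 0.07. Acp5, their acid phosphatase, had -1.45 with an interval from -2.98 to 0.08. Adding the differences on the linear scale would put PJ at 1434 FPKM for Ctsk and 446 FPKM for Acp5. The PJ means were 1482 and 437 FPKM, so for both genes the shortfall was largely confined to the log2 scale. Tnfrsf11a encodes RANK, the receptor through which RANKL drives osteoclast formation. It was at 0.271, 0.498 and 0.618 FPKM in OVX, 1.63, 2.696 and 6.01 in J, 9.91, 6.04 and 10.3 in P and 9.82, 9.39 and 6.08 in PJ. Its J libraries lay below every P and PJ library, J 3 only by a small margin. The contrast was -1.53 ± 0.47 (SE; limma adjusted p = 0.459). Its PJ mean of 8.43 FPKM was also under the linear sum of 11.7 FPKM. Itgb3, the integrin beta chain of osteoclasts and platelets, went the other way. It fell by 1.38 in P and 1.29 in PJ, its difference of -1.66 in J did not pass, and its contrast was 1.75 ± 0.62 (SE; limma adjusted p = 0.490). For Tnfsf11, which encodes RANKL, PJ equalled the sum to 2 decimals, with an interval from -1.71 to 1.71, and its decoy receptor Tnfrsf11b (osteoprotegerin) had -2.96 with an interval from -6.53 to 0.61. Il34, a ligand of the Csf1 receptor, rose by 1.87 in J, 1.95 in P and 1.86 in PJ, and its contrast was -1.95 ± 0.47 (SE; limma adjusted p = 0.396).

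In marrow fat, 16 of 20 adipocyte genes were below 0, at a median of -0.43. Of these genes 18 rose in PJ, where 28.5% of all genes did. In P 5 of 20 rose, a share near the 22.7% of all genes, and in J none did, where 1.98% of all genes rose. No gene was called between PJ and P. The J and P medians were 1.42 and 1.44, their sum 2.85 and the PJ median 2.32. Pparg, the master regulator of fat cell formation, was at 5.75, 7.61 and 14.6 FPKM in OVX, 21.6, 16.2 and 15.8 in J, 31.5, 11.2 and 37.5 in P and 37.6, 53.3 and 34.2 in PJ. P 2 was below the J libraries, and the contrast was -0.19 ± 0.59 (SE). Adipoq (adiponectin) had -1.21 with an interval from -4.36 to 1.94. Adding the differences on the linear scale would put PJ at 1369 FPKM for Adipoq and 35.3 FPKM for Pparg. The PJ means were not below these levels, at 1405 and 41.7 FPKM. The median of the list ran from -1.28 without P 2 to 0.07 without OVX 1, so its direction depended on single libraries. Without both P 2 and PJ 3 it was -1.46. The contrast of Pparg changed sign without OVX 1 and without P 3.

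Marrow lists that describe dividing cells and the red cell, platelet and neutrophil lines had negative medians in J, P and PJ. All 21 tested erythroid genes fell in P and in PJ, 2 fell in J, and all 21 were lower in PJ than in J. The median differences were -1.08, -2.57 and -4.05, the sum was -3.71, and the median contrast was -0.26 with 15 of 21 below 0. The PJ median was thus close to the sum, with wide intervals for single genes. Slc4a1, which exchanges chloride and bicarbonate across the red cell membrane, gave a contrast of -0.56 with an interval from -2.32 to 1.19. It was at 822, 892 and 686 FPKM in OVX, 332, 459 and 309 in J, 83.5, 201 and 101 in P and 30.9, 14.6 and 102 in PJ, with J between OVX and P without overlap. Hba-a1, a globin gene whose near-identical copies may share reads, had -0.17 with an interval from -1.96 to 1.62. The median of the list was -0.87 without PJ 3, 0.04 without P 2 and 0.21 without PJ 2, so its sign rested on single libraries, as did those of Hba-a1 and Slc4a1.

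All 13 platelet genes fell in P and in PJ, and 5 fell in J. All 13 contrasts were above 0, against 49.7% of all genes, at a median of 0.79. Without PJ 3 the median was 0.33. Ppbp, a chemokine of platelet granules, was at 1018, 604 and 508 FPKM in OVX, 219, 145 and 184 in J, 70.2, 127 and 55.1 in P and 41.3, 25.9 and 63.9 in PJ. It fell by 1.91 in J, 3.09 in P and 4.02 in PJ, with no P library reaching J, and its contrast was 0.98 with an interval from -0.24 to 2.19. Of 19 neutrophil granule genes 17 fell in P and 17 in PJ, and none in J. Their median contrast was 0.49, with 15 of 19 above 0. It was 0.17 without P 2, 0.04 without PJ 3 and -0.10 without both, and 0.15 without J 2. For Mmp8, a collagenase of neutrophils, the contrast was 0.45 with an interval from -0.74 to 1.63. B cell genes had a median of -0.21, which ran from -0.92 without P 2 to 0.17 without P 3. Cd79a, part of the B cell receptor, had -0.17 with an interval from -1.90 to 1.56, and its sign also changed with single libraries.

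Cell cycle genes moved together. All 24 fell in P and in PJ, 6 fell in J, and 22 were lower in PJ than in J. The median differences were -0.78, -1.67 and -1.91, and the contrast was above 0 in 23 of 24 at a median of 0.52. With an unadjusted p under 0.05 there were 7 of the 24, where 3.81% of all genes were over the sum. Mcm2, a subunit of the replicative helicase, was at 74.1, 62.3 and 68.1 FPKM in OVX, 44.8, 28.8 and 35.8 in J, 22.0, 18.4 and 24.5 in P and 23.9, 15.3 and 20.5 in PJ. PJ overlapped P, both lay below J, and the contrast was 0.77 ± 0.28 (SE; limma adjusted p = 0.499). Mki67, a marker of cycling cells, had 0.28 ± 0.31. The median of the list was 0.37 without P 2 and PJ 3.

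**Figure D4:**
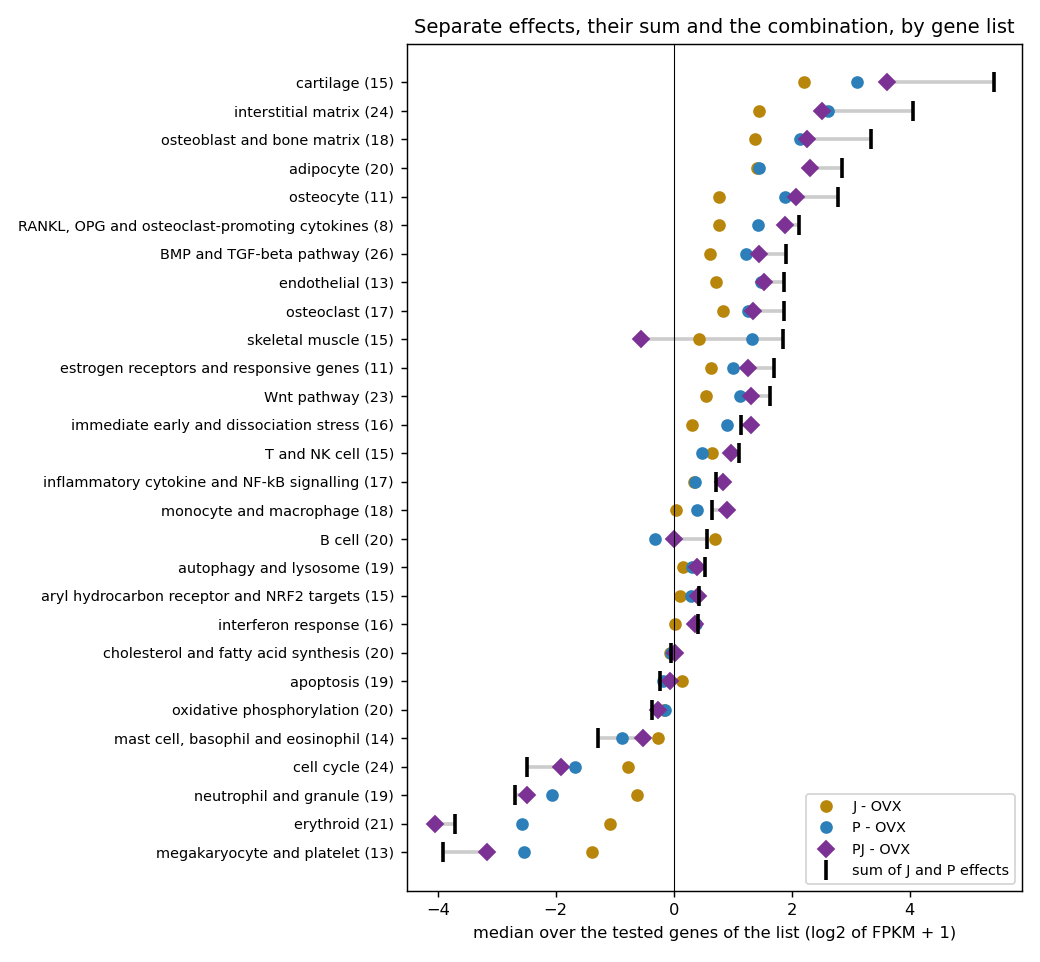
Median log2 difference from OVX over the tested genes of each list (number in brackets), for J and P (circles), PJ (diamonds) and the sum of the J and P differences per gene (black ticks). The PJ diamond of the osteoblast, interstitial matrix and cartilage lists lies to the left of the tick, nearer to P, and that of the platelet and cell cycle lists to its right.

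Among the signalling lists, median contrasts were -0.37 for the Wnt pathway and -0.51 for the BMP and TGF-beta pathway. Without PJ 3 they were -0.08 and -0.26. In the latter 22 of 26 genes were below 0, and 20 rose in P and 21 in PJ, against 22.7% and 28.5% of all genes. Nog, the BMP antagonist noggin, had a contrast of -0.89 ± 0.36. Ccnd1, the G1 cyclin listed among estrogen-responsive genes, was at 2.61, 3.11 and 3.79 FPKM in OVX, 8.44, 7.25 and 11.7 in J, 15.2, 19.9 and 17.0 in P and 22.9, 17.7 and 12.1 in PJ. It rose by 1.27, 2.14 and 2.12, and its contrast was -1.29 ± 0.33 (SE; limma adjusted p = 0.396). Esr1, the estrogen receptor alpha gene, was below the level filter and was not tested.

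Lists of general cell functions had medians near 0, and the sign of those for autophagy and for NRF2 targets changed when single libraries were left out. The median contrast was 0.09 for oxidative phosphorylation, -0.05 for autophagy and lysosome genes (0.11 after rescaling to TPM, which moved the median of all genes to 0.144) and 0.03 for aryl hydrocarbon receptor and NRF2 targets (-0.05 with array weights, where the median of all genes was -0.118). For oxidative phosphorylation the 95% interval lay within 1 log2 unit of 0 in 16 of 20 genes, and for autophagy and lysosome genes in 14 of 19, against 50.2% of all genes. For aryl hydrocarbon receptor and NRF2 targets it did so in 6 of 15. Among the NRF2 targets, Srxn1 (sulfiredoxin) had a contrast of 1.48 ± 0.47 and Gclm, a subunit of the enzyme that limits glutathione synthesis, 0.60 ± 0.24, neither past the threshold. The sum would put Srxn1 in PJ at 0.0043 FPKM, close to 0, so that nearly any PJ level gives a positive contrast. Gclm fell in J, P and PJ by 0.93, 1.84 and 2.16 log2 units. The list as a whole went both ways: of its 15 genes, 4 rose and 3 fell in P, and 6 rose and 4 fell in PJ. Of all genes, 22.7% rose and 14.4% fell in P, and 28.5% rose and 14.2% fell in PJ.

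**Figure D5:**
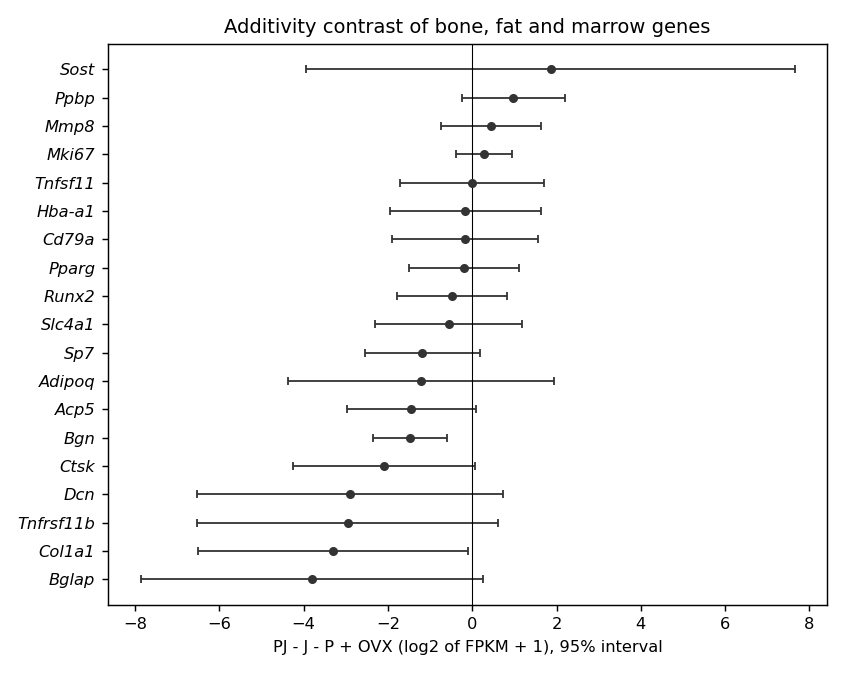
Additivity contrast (points, log2 units) of the 19 tested genes chosen by name, with 95% intervals (bars). The intervals of Bgn and Col1a1 exclude 0 before adjustment over all genes, and those of Sost, Bglap and Tnfrsf11b span several units.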

How the data were processed

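Femur polyA RNA was sequenced in 15 libraries, of which the 12 of groups OVX, J, P and PJ were analysed. Reads were processed with fastp 0.23.4, STAR 2.7.11a and featureCounts 2.0.6 on mRatBN7.2, per the submitters' processing notes, with no settings given in the sources used here. The values are FPKM made by the authors, in the deposited column whose header ends in count; the column headed FPKM was empty. Whole reads were recovered from the step sizes for 24207 genes, and gave the depth and the voom alternative; 60.1% of counts from 1 to 20 were even, so they may be read ends, and depth limits cover counting error only.

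Genes with a mean of at least 1 FPKM were fitted on log2(FPKM + 1) with limma 3.58.1 (R 4.3.3; trended empirical Bayes; 1 mean per group; two-sided tests), with Benjamini-Hochberg adjustment over all tested genes. The fit was tested on simulated data. The members of the comparison and the gene lists were chosen with earlier results of these data known. Named genes were the 8 of smallest p with a symbol in each direction, since none passed, the 2 of smallest p of each list, and genes chosen by name; not all are printed. In all, 25 alternatives were run, 12 of them leaving out 1 library.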

Additional observations from a re-analysis of the deposited data

How the results depend on the processing

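The count of genes departing from additivity was 0 in the analysis reported and moved under 6 of the 25 alternatives. It was 2 with a pseudocount of 0.1, 1 with median-ratio scaling and 1 without mitochondrial and globin genes, all under the sum. ENSRNOG00000064136 was called in each of these settings, and Efna1 was the other gene with the pseudocount of 0.1. On the linear scale the count was 17, all over the sum. All 17 have a J plus P minus OVX level below 0, as do 711 of the tested genes (4.965%). Array weights gave 506 (179 over, 327 under). Leaving out single libraries gave 0 to 1, with 0 over and 0 to 1 under; the 1 was without PJ 3. The cause was not tested. Intervals within 1 log2 unit numbered 15505 with no filter on low values, where more genes were tested, and 4680 after rescaling to TPM. J against OVX gave 268 genes with no filter, 259 with TPM, 945 with median-ratio scaling, 878 without mitochondrial and globin genes, 895 with all 15 libraries, 3811 with array weights, 2601 without both P 2 and PJ 3, and 0 to 1332 leaving out single libraries. PJ against J gave 922 with no filter, 7136 with array weights, 5079 without both, and 145 to 3587 leaving out single libraries. PJ against P gave 2 with array weights. For the 87 named genes, 2101 of 2162 values kept their direction and side of the threshold, 31 uncalled values changed sign and 30 passed the threshold, 28 of them with array weights.

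The labels number libraries 1 to 3 in each group. Deviations of same-numbered libraries correlated at -0.285 to 0.224, and of others at -0.208 to 0.258, so no pairing by number was visible. With 3 libraries per group these ranges cannot exclude it. With the replicate block there were 0 genes departing from additivity, and 383 in J, 5333 in P and 6084 in PJ against OVX, with 1233 in PJ against J.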
